A study of Mus musculus with 3 samples.

Results

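The 9 Kruppel-like factor genes Klf2, Klf3, Klf4, Klf5, Klf6, Klf7, Klf9, Klf10 and Klf13 were taken by symbol from the 27998 genes of a single-cell RNA series on mouse lung, and all 9 were present in all 3 libraries. The lungs came from MMTV-HER2/Neu mice on the FvB background, a model in which the mouse mammary tumour virus promoter drives the Neu oncogene in mammary epithelium, so every group carries the transgene. All cells were sorted as CD45-negative, which leaves out leukocytes. The early HER2-negative and the early HER2-positive library were the cells without and with surface HER2 from mice of 14 to 18 weeks that had no palpable tumour. The late HER2-positive library came from animals past 20 weeks that carried primary tumours. Where 3 values are given for a cell class they stand in that order, and a pair of values for a class is early and late HER2-positive unless named otherwise. The labels call both HER2-positive sorts breast cancer cells and do not say how many animals gave each library. Each group is 1 library, so there is no replicate error and no test between groups, and sort, stage, age and animal cannot be told apart from the library.

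Kruppel-like factors are zinc finger transcription factors that bind GC-rich and CACCC-type sequences and act as activators or repressors. In endothelium, Klf2 and Klf4 are raised by laminar blood flow through a kinase cascade that ends in MEF2 factors, and they favour anticoagulant and anti-inflammatory genes such as Nos3 and Thbd. Klf5 is known for roles in epithelia, including the lung lining, Klf9 and Klf13 are related repressors of which Klf9 is induced by glucocorticoids, Klf10 is an early gene of TGF-beta signalling, and Klf4 and Klf6 respond quickly to many stimuli.

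In GENCODE coordinates on GRCm38, the build of the files, Klf2 lies at chr8:72319033-72321656 on the plus strand, Klf4 at chr4:55527143-55532466 on the minus strand and Klf5 at chr14:99298691-99315036 on the plus strand. Klf3 spans chr5:64803388-64832901, Klf6 chr13:5861482-5870394 and Klf9 chr19:23141226-23168134, all on the plus strand. Klf7 spans chr1:64029447-64122282, Klf10 chr15:38291463-38300706 and Klf13 chr7:63886351-63938915, all on the minus strand. The spans of Klf7 and Klf13 overlap 2 and 1 listed genes on the opposite strand.

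RefSeq promoters on GRCm38.p6 were matched for 7 of the 9 genes, all but Klf5 and Klf10. The RefSeq starts of Klf2 and Klf4 differ from those of the GENCODE spans above, and that of Klf2 lies inside its span. The 250 bases before the start of Klf2 and of Klf4, the pair that leads the endothelial results, are shown because they differ in the motifs they hold. In Klf2 the capitals mark its single match to the MEF2 box, at bases 118 to 109 before the start. The pattern searched was YTAWWWWTAR, where Y is C or T, W is A or T and R is A or G. In Klf4 they mark its single match to CACGTG, the 1 form of the E-box that was searched, at bases 182 to 177 before the start.
Klf2, chr8:72318812-72319061, plus strand: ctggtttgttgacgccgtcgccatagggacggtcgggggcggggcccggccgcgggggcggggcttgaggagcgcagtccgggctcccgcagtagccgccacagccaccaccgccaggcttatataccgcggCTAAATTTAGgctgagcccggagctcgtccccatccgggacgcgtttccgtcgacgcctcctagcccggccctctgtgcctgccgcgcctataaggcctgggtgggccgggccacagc
Klf4, chr4:55532476-55532725, minus strand: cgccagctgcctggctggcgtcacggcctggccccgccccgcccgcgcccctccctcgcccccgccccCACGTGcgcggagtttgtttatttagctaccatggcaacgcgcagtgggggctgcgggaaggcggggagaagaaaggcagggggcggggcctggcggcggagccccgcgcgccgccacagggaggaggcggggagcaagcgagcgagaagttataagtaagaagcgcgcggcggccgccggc
On either strand, the MEF2 box was in 3.01% of the 27025 promoters of this length, and among the 7 matched members it was found in Klf2 alone. The E-box form CACGTG was in 6.05% of all promoters and in those of Klf4 and Klf6. The GC box GGGCGG was in 32.9% of all promoters and in those of Klf2, Klf3, Klf4, Klf6, Klf7 and Klf13. The CACCC box CCACCC was in 27.7% of all promoters and in those of Klf2, Klf3, Klf7 and Klf13. None of the capitalised matches overlapped another motif. A match of letters is a description and not a measured binding site.

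Barcodes with at least 1000 UMIs (unique molecular identifiers, 1 per captured transcript) and under 25% mitochondrial UMIs were kept, which left 6416, 7622 and 6012 cells. Their median UMIs per cell were 3166, 5318.5 and 8075. Cells were given 1 of 6 classes from 1 to 3 genes each, and every class of 50 or more cells carried all of its 7 or 8 other markers above 50 CPM (UMIs scaled by the total of the class). Endothelial cells were 80.8%, 20.4% and 8.08% of the kept cells. Alveolar type 2 (AT2) cells were 51.7% and 66.5% of the early and late HER2-positive cells, against 46 cells in the HER2-negative library, too few to be used. Cells with at least 1% of UMIs on the milk genes Csn3 and Wfdc18, called mammary here, were 0 of 7622 early HER2-positive cells, which allows a share of up to 0.0484% (upper end of the exact interval), and 161 late cells, 2.68%. These numbers do not cover mammary cells with few milk transcripts. Cells that met the rule of several classes made 3.54%, 19.7% and 19.3% of the libraries and 46.4% to 55.2% of mural cells. Pairs of libraries shared 10 to 18 cell barcodes, where 5.68 to 7.2 would fall together from the length of the barcode list. All intervals below are exact 95% Poisson or binomial intervals and cover counting error only.

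Klf2 was the leading member in endothelial cells. Its level there was 2069 CPM (interval 2048 to 2091), 1491 CPM (1462 to 1520) and 1756 CPM (1709 to 1804). The next class was mural or fibroblast cells, at 218 CPM, 190 CPM and 238 CPM, and the endothelial level was 9.5-fold, 7.84-fold and 7.38-fold above it. AT2 cells held 64.9 CPM early and 43.1 CPM late, and mammary cells 21.9 CPM. In cells thinned to 1000 UMIs, 75.8%, 65.7% and 74.1% of endothelial cells had a Klf2 UMI, against 4.82% of early and 3.83% of late AT2 cells. Without thinning these shares were 92.9%, 91.4% and 96.3% of endothelial cells, and 20.0% and 18.9% of AT2 cells, at median depths of 3034, 3790 and 5399 UMIs and of 7138 and 8837 UMIs.

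Klf4, which shares the flow response of Klf2, followed it at a lower level. Endothelial cells held 941 CPM, 618 CPM and 764 CPM. Fibroblasts came next with 117 CPM, 216 CPM and 199 CPM, so that the endothelial level was 8.02-fold, 2.87-fold and 3.84-fold above the next class. The lowest Klf4 level was 12.2 CPM, in mammary cells, and AT2 cells held 49.0 CPM early and 24.7 CPM late.

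Klf3, Klf7, Klf13 and Klf10 also had their highest class level in endothelial cells in each library. Klf3, a repressor that works through CtBP, was at 487 CPM, 382 CPM and 569 CPM in endothelial cells and between 50.3 and 117 CPM in every other class. Klf7 was at 706 CPM, 570 CPM and 565 CPM in endothelial cells, then at 251 CPM, 214 CPM and 221 CPM in mural cells, and the ratio of the classes was 2.55 to 2.81. Klf13 was more evenly shared with the mesenchyme: 421 CPM, 346 CPM and 318 CPM in endothelial cells stood beside 318 CPM, 243 CPM and 197 CPM in fibroblasts. Klf10 was the lowest of these genes, at 52.9 CPM, 43.4 CPM and 51.4 CPM in endothelial cells, and in the early HER2-positive library it did not differ from its 40.8 CPM in fibroblasts beyond counting error (ratio 1.06, interval 0.792 to 1.45).

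In all, 7 of the 9 members were highest in endothelial cells in the early HER2-negative, 6 in the early HER2-positive and 7 in the late library. Among all genes with at least 50 UMIs, 35.8%, 24.7% and 18.8% were highest there. The member that came and went was Klf6, whose top classes differed little. Summed over the 9 members, endothelial cells held 5621 CPM, 4181 CPM and 4740 CPM, of which Klf2 made 36.8%, 35.7% and 37.0%. Since each UMI stands for 1 captured 3′ end whatever the gene's length, levels of different genes were compared as UMIs without length scaling.

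**Figure D1:**
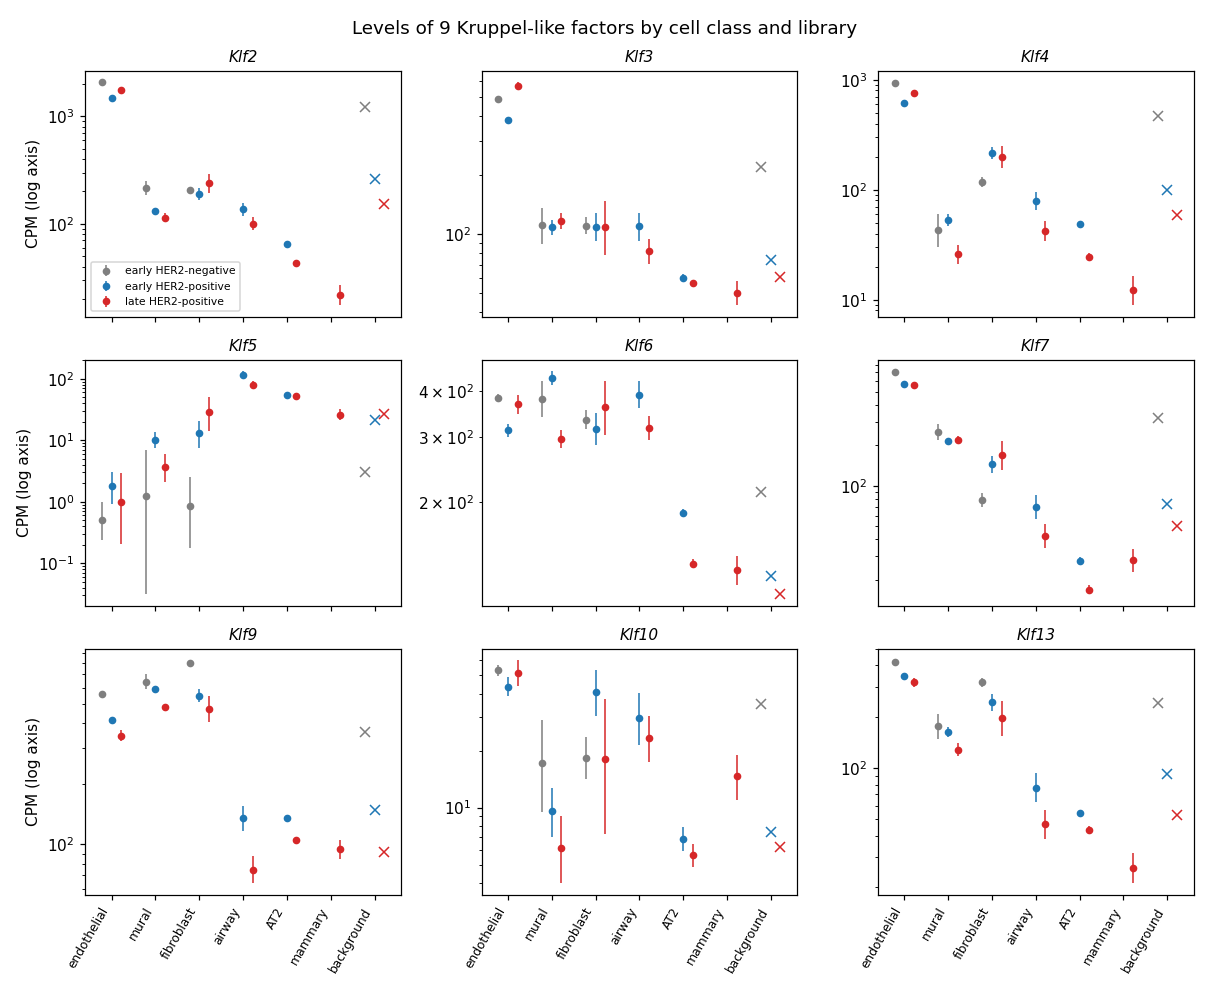
Level of each member (CPM, log axis) by cell class, with 1 point per library and exact 95% Poisson intervals, and crosses for barcodes of 1 to 100 UMIs. Klf2 in endothelial cells lies between 1491 and 2069 CPM, while Klf5 there lies between 0.514 and 1.78 CPM.

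Klf5 showed the reverse arrangement. It was highest in airway cells, at 115 CPM (97.4 to 134) early and 79.0 CPM (67.7 to 91.7) late, 2.07-fold and 1.5-fold above AT2 cells at 55.4 CPM and 52.7 CPM. Mammary cells held 26.0 CPM, 95.5% of the late background. Endothelial cells held 9, 12 and 3 Klf5 UMIs, or 0.514 CPM, 1.78 CPM and 0.995 CPM. Mural cells were at 1.23 CPM, 10.2 CPM and 3.68 CPM and fibroblasts at 0.861 CPM, 13.1 CPM and 28.4 CPM. Barcodes of 1 to 100 UMIs, which hold mostly free RNA, carried 3.07 CPM, 21.2 CPM and 27.2 CPM of Klf5, so the level of Klf5 in mural cells and fibroblasts was at or under that background in every library but for late fibroblasts, at 105% of it. AT2 cells stood at 262% and 194% of the background and airway cells at 541% and 291%.

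Klf9 was the leading member of the mesenchyme. Fibroblasts held 797 CPM, 549 CPM and 471 CPM, and mural cells 644 CPM, 592 CPM and 480 CPM. Fibroblasts were higher in the HER2-negative library (ratio 1.24, interval 1.13 to 1.36), whereas in both HER2-positive libraries the order of these classes was within counting error. Endothelial cells followed with 560 CPM, 415 CPM and 347 CPM, and AT2 cells with 135 CPM and 105 CPM. Klf9 made 34.5% to 34.9% of the member total in mural cells and 26.3% to 40.2% in fibroblasts.

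Klf6 was the most even. Across endothelial, mural, fibroblast and airway cells it ran from 297 to 435 CPM, with the highest value in early HER2-positive mural cells. AT2 cells held 187 CPM early and 136 CPM late, and mammary cells 131 CPM, which did not differ from late AT2 cells beyond counting error (AT2 over mammary 1.04, interval 0.947 to 1.14). At these levels Klf6 still led the member total in AT2, airway and mammary cells, with 29.2% and 28.2% of it in early and late AT2 cells.

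Free RNA followed the endothelial genes. Background barcodes held 1227 CPM, 262 CPM and 153 CPM of Klf2 and 471 CPM, 99.9 CPM and 58.7 CPM of Klf4. AT2 cells stood at 24.8% and 28.2% of that background for Klf2 and at 49.0% and 42.1% for Klf4, while the 8 endothelial markers summed over AT2 cells stood at 13.2% and 15.4% of theirs. For Klf3 AT2 cells reached 80.6% and 92.3%, and for Klf6 148% and 121%. The part of free RNA in the low AT2 levels was not tested.

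Within the endothelium, cells were split in order by summed UMIs of marker genes. A rule of Gja5, Bmx, Efnb2 and Sox17 meant to find arterial cells took 59.6%, 63.4% and 78.6% of the endothelial cells, most of the class, so it is called only by its genes. Against the cells that met none of the rules, 0 of the 8 measured members (Klf5 had too few UMIs) were 1.5-fold higher or lower in these cells in either early library, where 5.08% of genes were higher and 1.22% lower in the HER2-negative and 8.14% and 5.98% in the HER2-positive library. In the late library Klf4 was 1.97-fold, Klf6 1.6-fold and Klf10 2.4-fold (134 and 4 UMIs) higher, where 20% of genes were higher and 9.54% lower, against 55 remaining cells. A rule needed at least 2 UMIs of its genes, which deeper cells reach more readily. Median UMIs were 3160, 4089 and 5862 in the cells of this rule and 2484, 2728 and 2693 in the remaining cells. The part of depth in the ratios of all these rules was not tested. The rule of Car4, Ednrb and Fibin, genes of the aerocyte capillary type, took 480 cells of the early HER2-negative and 174 of the early HER2-positive library. Median UMIs of these cells were 3720 and 4151.5. Against the remaining cells, these Car4-rule cells had higher Klf4 (1.6-fold and 1.87-fold), Klf7 (1.64-fold and 1.71-fold) and Klf13 (1.64-fold and 1.56-fold), 3 of 8 measured members in each library, where 9.72% and 10.6% of all measured genes were higher. No member was lower by that size in the early HER2-positive library, where 9.21% of genes were. Their Klf4 level was 1302 CPM and 805 CPM, their Klf7 level 1099 CPM and 841 CPM. Klf9 was lower in them, at 366 CPM and 298 CPM, 0.653 and 0.764 of the remaining cells, and in the HER2-negative library that passed 1.5-fold, as 13% of genes did. With the first rule narrowed to Gja5 and Bmx, an alternative chosen after seeing the data, the Car4-rule cells numbered 879 and 371 and the ratios were 1.39 and 1.39 for Klf4, 1.42 and 1.38 for Klf7, and 1.42 and 1.33 for Klf13, so that 0 members passed 1.5-fold. In the late library 95 cells then met the Car4 rule, with Klf4 at 1.47 and Klf7 at 1.39.

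Cells of the Vwf, Slc6a2 and Vcam1 rule, 303 and 95 cells in the early HER2-negative and early HER2-positive libraries, had more Klf2 than the Car4-rule and the remaining cells. It was 3228 CPM and 2031 CPM, 1.71-fold and 1.7-fold above the remaining cells, and Klf4 was 1.57-fold and 1.68-fold above. At 1.5-fold, 2 of 8 measured members were higher in the HER2-negative library and 3 of 8 in the HER2-positive library, where 8.45% and 9.07% of all measured genes were higher. The further member in the HER2-positive library was Klf10 (1.94-fold, interval 1.07 to 3.47, from 23 and 29 UMIs), which was at 1.02 in the HER2-negative library. No measured member was lower by 1.5-fold, against 11.8% and 13.5% of genes. Median UMIs of the Vwf-rule cells were 3463 and 3548, also above those of the remaining cells. Klf7 was at a lower level, 478 CPM and 420 CPM, against 1099 CPM and 841 CPM in the Car4-rule cells. The summed level of 17 immediate early genes was 20867 CPM and 16976 CPM in the Vwf-rule cells against 11980 CPM and 10042 CPM in the Car4-rule cells. In cells under the median immediate early share, the HER2-negative counts of members 1.5-fold higher went from 2 to 0 in the Vwf-rule cells and from 3 to 1 in the Car4-rule cells, while in the HER2-positive library they were 2 and 3. In the late library 28 cells met the Car4 and 21 the Vwf rule, too few to be used. With the narrowed first rule the Klf2 ratios of Vwf-rule cells were 1.47, 1.41 and, in 68 late cells, 1.3. Their Klf2 level was then 2830 CPM, 1893 CPM and 1999 CPM, beside 1997 CPM, 1984 CPM and 2094 CPM in the Gja5 and Bmx cells, so the Vwf-rule cells were above them in the HER2-negative library only.

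Immediate early genes such as Fos, Jun, Egr1 and Atf3 are induced within minutes by many stimuli, and cell isolation can also induce them. The part of cell isolation in the levels here was not tested. Inside most cell classes the level of Klf2, Klf4 and Klf6 went with that of the immediate early genes. Cells of each class and library were divided at the median share of UMIs on a list of 17 genes, none of them a member. Besides such genes the list holds Jund and the heat shock genes Hspa1a and Hspa1b. The cells above and below the median were compared as high and low cells. Klf6 was at least 1.5-fold higher in the high cells in 12 of 14 class-by-library points, Klf2 in 10 of 14 and Klf4 in 10 of the 12 points with at least 50 UMIs. Over the same points, 2.67% to 16.2% of all measured genes were higher, with a median of 6.75%. In early HER2-negative endothelial cells, the largest class, 4.51% of genes were higher and 0.838% lower. Klf2 (1.36), Klf4 (1.44) and Klf6 (1.37) did not pass 1.5-fold in that class. Klf7 was higher in 5 of 14 points, Klf13 in 4 of 14, Klf9 in 3 of 14, Klf3 in 2 of 13, Klf10 in 2 of 9 and Klf5 in 0 of 6. No member was 1.5-fold lower in the high cells at any point.

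The separation was wide in epithelial cells and smaller in endothelial cells. In early AT2 cells Klf4 was 79.9 CPM in the high and 16.8 CPM in the low cells (4.76-fold, interval 4.14 to 5.5), Klf2 was 100.4 CPM and 28.0 CPM (3.59-fold) and Klf6 was 289 CPM and 80.5 CPM (3.6-fold). In late AT2 cells the ratios were 3.45 for Klf4, 3.67 for Klf2 and 2.97 for Klf6. Mammary cells had 233 CPM of Klf6 in the high and 41.6 CPM in the low cells (5.6-fold, interval 4.4 to 7.19), and Klf2 at 30.1 CPM and 14.7 CPM. Endothelial cells kept 1744 CPM, 1228 CPM and 1534 CPM of Klf2 in the low cells, and the high cells were 1.36-fold, 1.41-fold and 1.27-fold above. Endothelial Klf4 was 1.44-fold, 1.61-fold and 1.43-fold higher in the high cells, and Klf6 was 1.37-fold, 1.5-fold and 1.58-fold higher. In late mural cells the Klf2 levels were 114 CPM and 113 CPM (ratio 1.01, interval 0.837 to 1.22). Klf3 had a median ratio of 1.15 over 13 points and Klf9 one of 1.23 over 14 points. Median depth of high and low AT2 cells was 7170.5 and 7099 UMIs early and 9118 and 8610.5 UMIs late.

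Left to cells that met the rule of 1 class only, a restriction chosen after seeing the data, Klf6 was higher in 11 of 14 points, Klf2 in 10 of 14 and Klf4 in 8 of 10. The fibroblast rule is the last in the order, so no fibroblast met several rules. The fibroblast points in these counts therefore could not change. In early AT2 cells the ratio was then 6.6 for Klf4, 5.02 for Klf2 and 3.73 for Klf6.

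**Figure D2:**
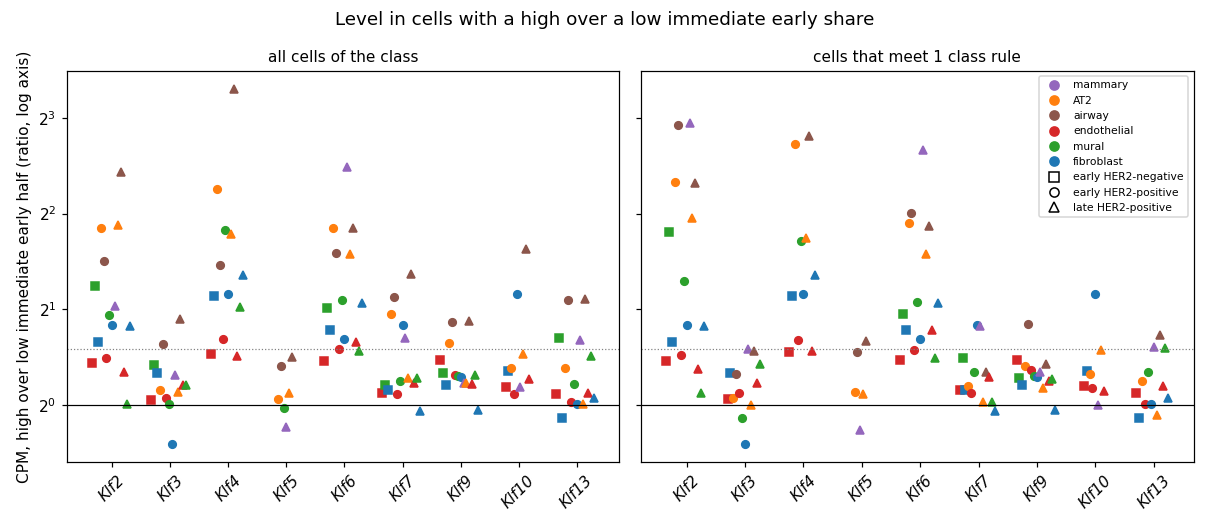
Ratio of each member's CPM in cells of high over low immediate early share (log axis), 1 point per class and library with at least 50 UMIs, for all cells of the class and for cells that meet 1 class rule; the dotted line is 1.5-fold. Klf2, Klf4 and Klf6 have medians of 1.85, 2.4 and 2.06 on the left, against 1.15 for Klf3 and 1.07 for Klf5.

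Early and late HER2-positive cells were first set side by side over all kept cells. Klf4 (2.02-fold), Klf7 (1.97-fold), Klf2 (1.94-fold), Klf13 (1.78-fold) and Klf9 (1.59-fold) were at least 1.5-fold higher early, 5 of 9 members against 14.6% of 13890 genes, and none was lower, against 5.83% (20.5% in either direction). Endothelial cells, the class with the highest level of most of these genes, were 20.4% of the early and 8.08% of the late cells. In such totals a larger share of one cell class and more RNA per cell cannot be told apart, so the classes were compared one by one.

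In endothelial cells 0 of the 8 measured members passed 1.5-fold in either direction, where 6.84% of 9814 genes were higher and 3.59% lower, 10.4% in all. Klf3 came nearest, at 0.671 of the late level (interval 0.631 to 0.714). Klf4 was at 0.809, Klf2 and Klf6 at 0.849 and Klf7 at 1.01, so Klf2, Klf3, Klf4 and Klf6 were lower early, opposite to the comparison over all cells. None of the 12 genes of the flow-sensing pathway upstream of Klf2 passed 1.5-fold. Of 9 measured genes that Klf2 or Klf4 are known to raise, Nos3 (0.497) and Gja5 (0.342) were lower and Ptgs1 (1.99) higher. The median of that list was -0.14 on the log2 scale against 0.05 for all genes. Among genes they are known to lower, F3 was higher at 2.64 and Angpt2 at 1.53. The immediate early list was at 10112 CPM early and 7950 CPM late, with 5 of its 17 genes higher and 1 lower.

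In AT2 cells Klf4 was 49.0 CPM early and 24.7 CPM late (1.98-fold, interval 1.82 to 2.15), Klf7 27.5 CPM and 16.8 CPM (1.64-fold), and Klf2 64.9 CPM and 43.1 CPM (1.51-fold). These 3 of 9 members were at least 1.5-fold higher, against 10.2% of 12021 genes, and none was lower, against 1.66%. Klf5 did not differ beyond counting error (1.05, interval 0.983 to 1.12), nor did Klf3 (1.06, interval 0.997 to 1.13), while Klf6 was 1.38-fold and Klf9 1.29-fold higher. Of 9 measured genes that Klf2 or Klf4 are known to raise in endothelium, 6 were higher early, among them Gja4 (4.91), Adamts1 (3.48), Thbd (3.23) and Tek (3.21). The summed endothelial markers in these AT2 cells were 220 CPM early and 121 CPM late, the mural markers 518 CPM and 75.3 CPM, and the fibroblast markers 115 CPM and 30.5 CPM; the part of the mural and fibroblast markers was not tested on its own. In AT2 cells that met no other class rule, where these markers were 102 CPM and 85.4 CPM, Klf4 stayed at 1.98-fold (40.0 CPM against 20.2 CPM), Klf2 was 1.21-fold and Klf7 was 0.846 of the late level (interval 0.722 to 0.991), the opposite direction. The immediate early list was at 6240 CPM early and 4339 CPM late. In AT2 cells below the shared median immediate early share, 1585 early and 2382 late cells, Klf4 had 136 and 240 UMIs (ratio 1.06, interval 0.85 to 1.31), Klf2 a ratio of 1.1 (0.94 to 1.29) and Klf7 one of 1.13 (0.936 to 1.36). Klf6 there was at 0.938 (0.86 to 1.02).

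Mural cells resembled AT2 cells in Klf4. It was 53.4 CPM early and 26.0 CPM late (2.05-fold, interval 1.63 to 2.59). Klf5, at 10.2 CPM and 3.68 CPM (2.76-fold, from 50 and 15 UMIs), and Klf10, at 9.57 CPM and 6.14 CPM (1.56-fold, interval 0.94 to 2.64), also passed 1.5-fold. That made 3 of 9 members against 7.43% of 10012 genes, and none was lower, against 4.24%. Both Klf5 levels lie under the background. The immediate early list was at 11916 CPM early and 6762 CPM late, with 14 of 17 genes higher. Below the shared median immediate early share, 519 early cells held Klf4 at 16.5 CPM and 622 late cells at 17.3 CPM (ratio 0.956, interval 0.573 to 1.57). In these low cells Klf2 was lower early (0.695, interval 0.567 to 0.85), against 1.15 in all mural cells, and Klf6 was at 0.908 (0.797 to 1.03) against 1.46. In mural cells of 1 class rule Klf4 was 2.82-fold higher early. Of 8 measured genes of the glucocorticoid response, listed because Klf9 belongs to it, Fkbp5, Tsc22d3, Mt1 and Mt2 were lower early and Errfi1 higher, while Klf9 itself was 1.23-fold higher.

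In airway cells, 155 early and 196 late, 4 of 9 members were higher early against 12.6% of 7424 genes, and none was lower, against 2.41%. They were Klf4 (79.8 CPM against 42.5 CPM, 1.88-fold), Klf9 (135 CPM against 74.9 CPM, 1.8-fold), Klf7 (1.64-fold) and Klf13 (1.63-fold). Summed endothelial markers were 511 CPM early and 185 CPM late, mural markers 999 CPM and 31.0 CPM, and the immediate early list 8177 CPM and 5421 CPM. In airway cells of 1 class rule Klf4 was 43.7 CPM and 28.9 CPM (1.51-fold, interval 0.999 to 2.27), Klf9 was 1.6-fold and Klf5 1.59-fold higher, and Klf7 (1.38, interval 0.886 to 2.11) and Klf13 (1.27, interval 0.872 to 1.84) no longer passed. Of all airway cells, with those meeting several rules kept, 69 early and 106 late cells lay below the shared median immediate early share. There Klf2 (1.7-fold, interval 1.05 to 2.73, from 33 and 45 UMIs) passed. Klf7 (1.55-fold, from 20 and 30 UMIs) also passed, with an interval that held 1 (0.832 to 2.81). Klf4 had only 23 and 12 UMIs, under the minimum (ratio 4.45, interval 2.12 to 9.8).

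Fibroblasts, 268 early and 71 late, had 1 of 8 measured members past 1.5-fold, Klf10 at 40.8 CPM and 18.1 CPM (2.25-fold, interval 1.02 to 5.88, from 53 and 7 UMIs). Of 5355 genes, 10.9% were higher and 9.26% lower. The intervals of all other members there held 1.

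**Figure D3:**
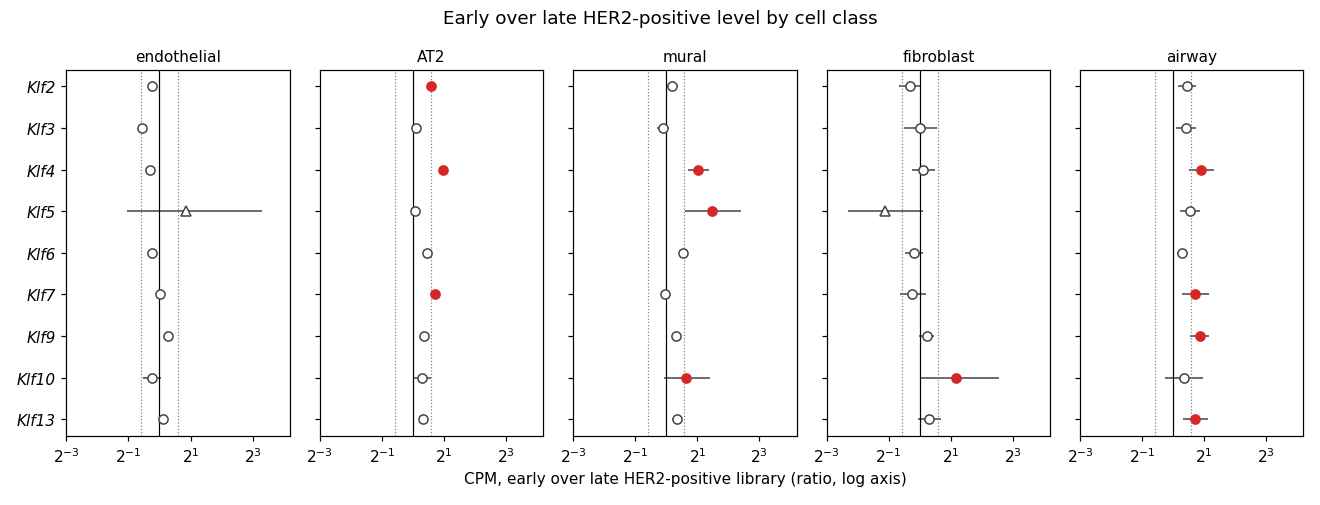
Ratio of early over late HER2-positive CPM (log axis) for each member in 5 cell classes, with exact 95% intervals; filled points pass 1.5-fold, triangles have under 50 UMIs over the pair and dotted lines mark 1.5-fold. Klf4 is about 2-fold higher in AT2, mural and airway cells and at 0.809 in endothelial cells.

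**Figure D4:**
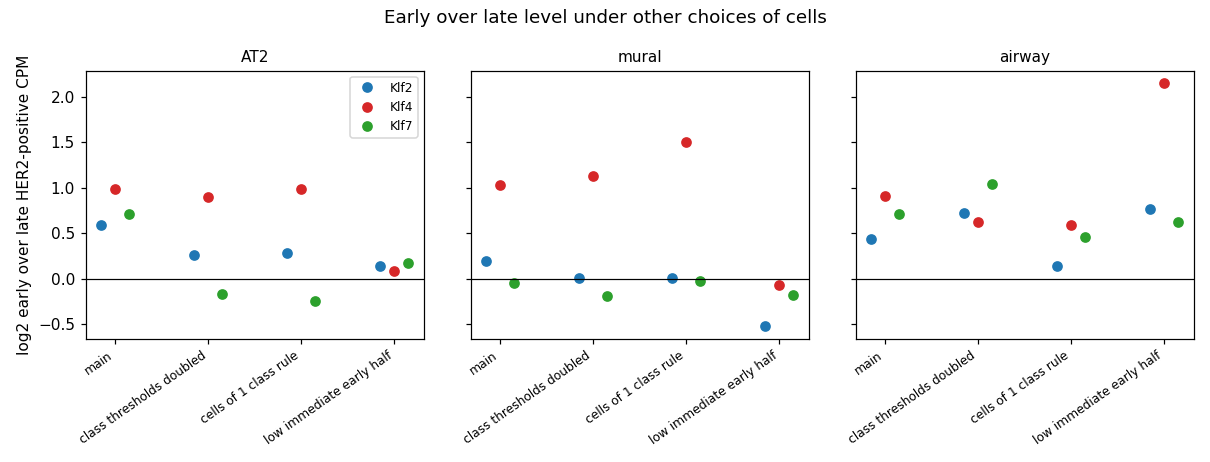
Ratio on the log2 scale of early over late HER2-positive CPM for Klf2, Klf4 and Klf7 in AT2, mural and airway cells, in all cells of the class and under 3 other choices of cells. In AT2 cells the Klf7 ratio is 1.64 with all cells and 0.846 with cells of 1 class rule, and in cells of low immediate early share the Klf4 ratio is 1.06 in AT2 and 0.956 in mural cells.

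Between the early libraries, the HER2-positive over the HER2-negative sort, 7 of 9 members were lower over all kept cells, against 35.8% of 13477 genes (19.2% higher, 55% in either direction). Klf2 had the lowest ratio, 0.184, at 297 CPM against 1616 CPM, and Klf5 was the 1 member that was higher, at 43.5 CPM against 2.17 CPM (20.0-fold). These libraries held 20.4% and 80.8% endothelial cells and 51.7% and 0.717% AT2 cells.

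In endothelial cells all 8 measured members were lower in the HER2-positive sort, though only Klf4 passed 1.5-fold. Klf4 was at 0.657 of the HER2-negative level (interval 0.635 to 0.68), where 3.93% of 11000 genes were lower and 8.04% higher by that size. Klf2 was at 0.72 (0.705 to 0.737), Klf9 at 0.742 and Klf3 at 0.784, and the 4 others lay between 0.808 and 0.823. The median of all genes was 0.01 on the log2 scale and that of the members was -0.33. Of 10 genes that Klf2 or Klf4 are known to raise, Thbd (0.614) and S1pr1 (0.613) were lower and Gja5 (2.19) and Nqo1 (1.51) higher. Among genes they are known to lower, Vcam1, Sele and F3 were higher, at 1.9, 7.02 and 21.1, but the median of that list was -0.03 on the log2 scale. The part of RNA from other cells in these ratios was not tested. None of the 12 flow-sensing genes passed. The immediate early list was at 12572 CPM in the HER2-negative and 10112 CPM in the HER2-positive library, with 4 of 17 genes lower, and under the median immediate early share the Klf4 log2 ratio, endothelial, early HER2-positive over early HER2-negative, was -0.60 against -0.61 in all cells. From the HER2-negative to the HER2-positive library the AT2 markers in endothelial cells went from 158 to 898 CPM, the mural markers from 116 to 762 CPM and the erythroid markers from 2120 to 500.4 CPM, and cells meeting several class rules from 1.95% to 11.2%. Without such cells the Klf4 log2 ratio was -0.56 and 0 members passed 1.5-fold. Klf2 and Klf4 in background barcodes were higher in the HER2-negative library, as given above; with 5% of background taken off, Klf4 no longer passed 1.5-fold.

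Fibroblasts went the other way for Klf4. It was 117 CPM in the HER2-negative and 216 CPM in the HER2-positive library (1.84-fold, interval 1.57 to 2.14). Klf7 was 78.6 CPM and 145 CPM (1.84-fold) and Klf10 18.4 CPM and 40.8 CPM (2.22-fold), which made 3 of 8 measured members higher against 12% of 8642 genes, and none was lower, against 10.7%. Klf9 was at 0.689 (0.634 to 0.748), short of 1.5-fold, and 4 of 8 measured genes of the glucocorticoid response were lower, namely Tsc22d3, Zbtb16, Errfi1 and Mt1. The immediate early list was at 19130 CPM in the HER2-negative and 16387 CPM in the HER2-positive library, with 3 of 17 genes higher and 3 lower. AT2 markers in fibroblasts went from 48.5 CPM to 744 CPM and erythroid markers from 788 CPM to 2.3 CPM, and their part in these ratios was not tested.

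In mural cells Klf2 was 218 CPM in the HER2-negative and 131 CPM in the HER2-positive library (0.599, interval 0.507 to 0.712), and Klf10 was at 0.556 with an interval that held 1. Of 9160 genes, 7.25% were lower and 10.2% higher by 1.5-fold. Klf5 was higher, from 1 and 50 UMIs (ratio 8.27, interval 1.42 to 333). In mural cells of 1 class rule 0 members passed. Klf2 was there at 155 CPM in the HER2-negative and 130 CPM in the HER2-positive library. Klf5 (1 and 26 UMIs) and Klf10 (9 and 19 UMIs) fell under the minimum of 50 UMIs, so they could not be called.

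Mammary cells were compared with AT2 cells within the late library. Klf10 was 14.6 CPM in mammary and 5.6 CPM in AT2 cells (2.61-fold, interval 1.89 to 3.53) and Klf7 28.1 CPM and 16.8 CPM (1.67-fold). Klf4 and Klf5 were both at 0.492 of the AT2 level, Klf2 at 0.508 and Klf13 at 0.6. In all, 2 of 9 members were higher and 4 lower, where 44.8% of 11495 genes were higher and 21.8% lower, so the share that differed was 6 of 9 against 66.7%. The median of all genes was 0.47 on the log2 scale and that of the members -0.16. The immediate early list was at 3387 CPM in mammary and 4339 CPM in AT2 cells, with 11 of 17 genes lower and 2 higher.

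Over the 14 class-by-library points, the genes whose log2(CPM + 1) was most like each member were ranked among 9771 genes. Points share libraries and classes, so the correlations are descriptions. Tmem100, Acvrl1 and Tspan18 were nearest to Klf2, all at Pearson's r of 0.99. Klf4 lay nearest to Ifi204 (0.98), Fmo1 and Abcb1a (both 0.97), Klf13 to Thbd (0.99), Plscr4 and Pttg1ip (both 0.98), and Klf7 to Gbp7, Snn (both 0.99) and Cyth3 (0.98). Klf3 lay nearest to Fkbp1a, Shisa5 and Kif26a (all 0.99) and Klf9 to Zfp639, Mapk8ip3 (both 0.98) and Picalm (0.97). Klf5 lay nearest to Cobl (0.98), Faah and Slc25a10 (both 0.97). Klf6 and Klf10 had the weakest nearest genes, B4galt5 at 0.94 and Tirap at 0.91.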

How the data were processed

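The deposited matrices hold raw UMI counts per gene and barcode, not normalized, from Chromium 3′ version 3 libraries, per the labels. The file headers give matrix software version 3.1.0, and the submitters' processing notes give mm10 as the genome. Aligner and annotation: not given in the sources used here. Each matrix lists 6794880 barcodes. The total was 25610135 UMIs for early HER2-negative cells, 49248126 for early and 54961019 for late HER2-positive cells, of which 23039097, 44541222 and 51075059 lay in kept cells.

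Cells were classed in order: mammary (Csn3 and Wfdc18, at least 1% of UMIs), AT2 (Sftpc, 10%), airway (Cyp2f2 and Foxj1, 3 UMIs), endothelial (Cldn5 and Cdh5, 2 UMIs), mural (Higd1b, Cox4i2 and Myh11, 2 UMIs) and fibroblast (Pdgfra and Col1a2, 2 UMIs). No doublet caller was run; cells that meet several rules were left out as an alternative. Barcodes with at least 1000 UMIs and under 25% mitochondrial UMIs were kept, and shares of cells with a UMI used cells thinned to 1000 UMIs, with 0 cells left out. Counts were summed per class and library, and levels are CPM, UMIs scaled by the class total. A member was called at a ratio of 1.5-fold with at least 50 UMIs over the pair, in classes of at least 50 cells. Exact Poisson, conditional binomial and Clopper-Pearson intervals of 95% were used, with Python 3.11.15, numpy 2.4.6, scipy 1.17.1, pandas 2.3.3 and matplotlib 3.10.9, and the ratio and interval steps were checked on simulated counts. With 1 library per group no p-value was computed. Background barcodes held 1 to 100 UMIs. All 9 members are named; for each, the 3 genes most alike are given, among genes reaching 20 CPM, and list genes are named where they passed 1.5-fold. The list symbols Cebpd, Ccn1 and Ccn2 were not matched, and 1 list gene and the list counts that rest on it are not reported here. A further arterial rule and a restriction to cells of 1 class rule were chosen after seeing the data. The members and gene lists were chosen with earlier results of these data known.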

Additional observations from a re-analysis of the deposited data

Results flagged for a closer look

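Klf4 went in opposite directions between the early libraries, at 1.84-fold in fibroblasts and 0.657 in endothelial cells of the HER2-positive over the HER2-negative sort. Klf10 did so between fibroblasts, at 2.22-fold, and mural cells, at 0.556, where the mural interval held 1. Both rest on 1 library per sort, and the difference between classes was not tested.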

How the results depend on the processing

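Of 194 recomputed counts of members, 158 stayed within 1.5 times the reported one, and of 987 recomputed ratios 833 stayed inside the reported interval. The settings differed widely in this. Inside the interval were 51 of 98 ratios under the median immediate early share and 72 of 99 with the median ratio set to 1. With a barcode minimum of 500 UMIs it was 99 of 99. In all 35 ratios took the opposite sign, 3 of them from a ratio past 1.5-fold. Early over late HER2-positive, the count over all cells went from 5 to 3 in cells under the median immediate early share and 1 at 2-fold. In AT2 cells it went from 3 to 1 with class thresholds doubled, 1 without cells meeting several class rules, 1 with equal weight per cell, 0 under the median immediate early share and 0 at 2-fold. Klf7 there turned from 0.71 to -0.16 (log2) with doubled thresholds and -0.24 without cells meeting several rules. In endothelial cells the count went from 0 to 1 with doubled thresholds, with the median ratio set to 1 and with no UMI minimum. In mural cells it went from 3 to 1 without cells meeting several rules and 0 under the median immediate early share, where the Klf4 log2 ratio, mural, turned from 1.03 to -0.065, Klf2 log2 ratio, mural, from 0.20 to -0.52 and Klf6 log2 ratio, mural, from 0.55 to -0.14. Without cells meeting several rules, mural Klf5 (26 and 6 UMIs) and Klf10 (19 and 4 UMIs) fell under the UMI minimum. Their ratios there were 3.01 and 3.3. In fibroblasts 1 became 2 under the median immediate early share and with no UMI minimum. In airway cells 4 became 2 with equal weight, the median ratio set to 1 or that share, and 0 at 2-fold. For these changes the cause was not tested.

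HER2-positive over HER2-negative, the endothelial count of 1 went to 0 with mitochondrial UMIs under 10%, without cells meeting several rules, with equal weight, with background taken off and at 2-fold, and to 2 with doubled thresholds and with no UMI minimum. The mural count of 3 went to 0 without cells meeting several rules, 1 under the median immediate early share and 1 at 2-fold, the fibroblast count of 3 to 1 at 2-fold, and the mammary over AT2 count of 6 to 3 at 2-fold. Without cells meeting several rules, mural Klf5 and Klf10 had too few UMIs to be called. In the HER2-negative library the Car4-rule count of 3 went to 1 and the Vwf-rule count of 2 to 0 under the median immediate early share. With the Gja5 and Bmx rule, chosen after seeing the data, the Car4-rule count was 0 in both early libraries and the Vwf-rule count 0 and 1. The causes were not tested.

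No paired analysis was possible because each group is 1 library. Klf5 in endothelial cells, and Klf10 in fibroblasts and mural cells, rest on few UMIs.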

Other observations

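Cells that met no class rule, 278, 350 and 171 in the order of the libraries above, carried the alveolar type 1 marker list at 12670 CPM, 25121 CPM and 17804 CPM. Klf6 was their leading member, at 266 CPM, 543 CPM and 419 CPM, followed by Klf9 at 255 CPM, 290 CPM and 270 CPM. The early HER2-negative set also held erythroid markers at 472660 CPM.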
